A study of Mus musculus with 8 samples.

Results

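The caspases Casp1, Casp2, Casp4, Casp6, Casp8 and Casp9, the caspase activator Apaf1 and the kinase Dapk2 were followed in whole bone marrow (BM) of 8 mice, as 8 of the 41214 genes counted in each library. The genes were listed by symbol and chosen with earlier results of these data known, and Dapk2 was chosen on its high value in old KO against sick KD. Every comparison of Dapk2 that holds old KO or sick KD is therefore given as a description with no test.

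Gfi1 is a transcriptional repressor of hematopoiesis, and the study asked how its dose acts on myeloid disease and on the survival of BM cells. KD mice carry a knocked-in human GFI1 cDNA with a cassette that lowers its expression, and KO mice lack Gfi1. All mice were on the C57Bl6 background, and no mouse with normal Gfi1 was among these 8 libraries. There were 2 mice in each group. Ages were 39 and 42 days in young KD, 48 and 44 days in young KO, 158 and 101 days in old KO, and 187 and 78 days in sick KD. The labels give AML for both sick KD mice and no AML for the other 6, and the paper describes a myeloproliferative disease in sick KD mice. Replicates 1 and 2 are named in that order of ages throughout. Disease and genotype cannot be told apart between old KO and sick KD, whose ages overlap, and disease and age cannot be told apart between sick and young KD.

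Caspases are proteases that are made as inactive precursors. The initiators Casp2, Casp8 and Casp9 start apoptosis, each on its own platform, and lead to the activation of executioners such as Casp6, which cut cell proteins. Apaf1 binds cytochrome c released from mitochondria and builds the apoptosome that activates Casp9. Casp1 and Casp4 are inflammatory caspases that cut gasdermin D in pyroptosis, a lytic death well known in monocytes, macrophages and neutrophils. Dapk2 is a calcium- and calmodulin-dependent serine/threonine kinase of the death-associated protein kinase family.

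The libraries held 26642067 to 42679114 counts on genes. Reads that the counting assigned to no feature made up 42.0% and 38.8% in sick KD and 26.9% to 33.8% in the other 6 libraries. The base of this share is reads on genes, ambiguous reads and reads with no feature, without the other tallies. Gfi1 itself was at 5.49 and 7.14 CPM (counts scaled to the size of the library, TMM-normalized) in sick KD, 6.17 and 7.03 in young KD, 13.3 and 29.7 in old KO and 14.0 and 14.4 in young KO. These mouse Gfi1 counts do not check the labels, since the KD allele is a human cDNA and the KO locus can still be transcribed. No cell type marker was at 0 in any library. Of the 10 marker lists, the neutrophil list summed to 889 to 1335 CPM in sick KD and 589 to 701 elsewhere, with Mmp8 and Cd177 above all other libraries, while Retnlg was lowest in sick KD and the other 6 markers overlapped. The monocyte list summed to 9099 to 9747 and 6065 to 8306, with F13a1, Ly6c2 and Ms4a6c above all other libraries, Csf1r and Ccr2 overlapping and Cx3cr1 below. Both sick KD libraries were below all others for the B cell (35.3 to 79.9 against 108 to 648) and eosinophil lists (281 to 349 against 402 to 1188). The same held for the basophil and mast cell (179 to 180 against 201 to 353), T and NK cell (8.82 to 11.9 against 17.5 to 21.7) and erythroid lists. Old KO was also low in the B cell list, at 108 to 156 against 462 to 648 in the young groups. Single markers that overlapped other libraries were Ebf1 and Vpreb1 (B cell), Siglecf (eosinophil) and Cpa3, Ms4a2 and Fcer1a (basophil and mast cell). Of the T and NK cell markers, only Ncr1 was below all others. Sick KD overlapped other groups in the macrophage, megakaryocyte and stem and progenitor lists. In the macrophage list old KO was above all others (319 to 392 against 199 to 298). The macrophage markers C1qa, C1qb, C1qc, Vcam1 and Cd5l were below all others in both sick KD libraries, while Adgre1 overlapped. In the stem and progenitor list young KD (179 to 225) was below sick KD (228 to 266) and old KO (257 to 291). The neutrophil marker Ly6g stayed between 0.136 and 0.545 CPM in all 8 libraries.

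All 8 genes passed the filter on low counts in every comparison. A level per length (RPKM, which is CPM per kilobase of merged exons) allows genes to be compared with each other. Casp1 was the highest of the 8 at group means of 50.1 to 53.1 RPKM, followed by Casp8 at 41.7 to 44.1 and Apaf1 at 27.4 to 29.9. Casp2 followed at 15.7 to 18.1 RPKM. Below it, Casp9 (6.01 to 8.59 RPKM) and Casp4 (7.55 to 10.7 RPKM) were not separated, because Casp4 was above Casp9 in both sick KD libraries and in young KD 2 and below it in the other 5. The lowest were Casp6 at 1.95 to 2.82 RPKM and Dapk2 at 0.616 to 2.49 RPKM, whose values overlapped outside sick KD.

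The genes differed in how far the mice lay apart. On log2(CPM + 1), the SD over 8 mice was 0.05 for Casp8 and 0.06 for Casp1, and 1.01% and 2.46% of 15102 genes had a smaller one. Casp2 and Apaf1 also lay among the steadier genes, with 10.2% and 11.7% of genes below them. Casp6, Casp9 and Casp4 lay slightly above the median gene (SD of 0.18), with 54.0%, 62.7% and 67.6% of genes below them. Dapk2 was the most variable of the 8, with an SD of 0.76 and 96.6% of genes below it. Its SD holds the old KO and sick KD values on which Dapk2 was chosen, so its rank is a description only.

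**Figure D1:**
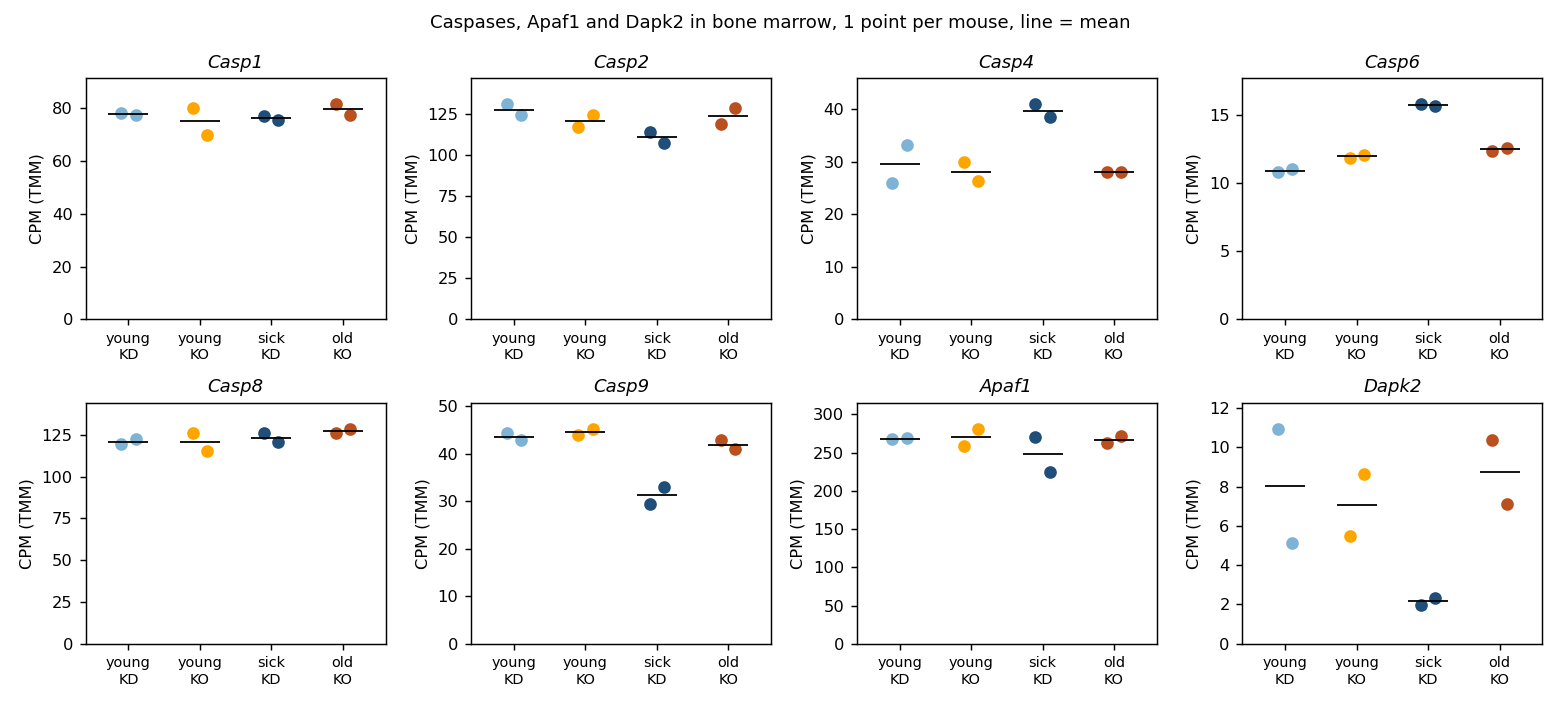
CPM (TMM-normalized, linear axis from 0) of the 8 genes in each mouse, by group, with 1 point per mouse and a line at the mean of 2 mice. Casp1 and Casp8 lie level across the groups, Casp4 and Casp6 are highest and Casp9 and Dapk2 lowest in both sick KD mice.

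In sick KD, both libraries lay outside the range of all 6 others for Casp4 and Casp6, which were above it, and for Casp2 and Casp9, which were below it. That is 4 of the 7 genes other than Dapk2, against 48.3% of the 15102 genes. It is thus a share near the background and says nothing particular about these genes. Fewer cells of a type and less RNA per cell cannot be told apart in whole BM. Several of the marker levels above moved with the same 2 libraries. Their part in these results was not tested.

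Casp1 and Casp4 are neighbours on chromosome 9 (GRCm38, plus strand). Casp1 (ENSMUSG00000025888) lies at 5298517 to 5307265 and Casp4 (ENSMUSG00000033538) at 5308828 to 5336783, with 1562 bases between them. The 250 bases before the RefSeq start of each are shown (GRCm38.p6, chr9:5298267-5298516 for Casp1 and chr9:5308599-5308848 for Casp4). They are given because Casp4 had an adjusted p under 0.05 by edgeR in old KO against sick KD and Casp1 in no comparison. The 2 genes were not tested against each other. Capitals mark matches on either strand to AATC, the core of the Gfi1 site, and to GGGANTTCC, a form of the kappaB site bound by NF-kappaB.

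Casp1: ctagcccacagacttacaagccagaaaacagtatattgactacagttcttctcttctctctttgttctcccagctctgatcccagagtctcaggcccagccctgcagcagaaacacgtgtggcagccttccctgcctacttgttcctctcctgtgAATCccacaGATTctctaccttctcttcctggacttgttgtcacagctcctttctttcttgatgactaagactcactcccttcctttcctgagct

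Casp4: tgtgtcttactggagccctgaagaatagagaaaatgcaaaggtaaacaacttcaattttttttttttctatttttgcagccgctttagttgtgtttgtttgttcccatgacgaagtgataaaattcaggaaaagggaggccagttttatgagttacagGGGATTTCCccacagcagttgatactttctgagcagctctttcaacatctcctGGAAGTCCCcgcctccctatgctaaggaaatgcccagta

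AATC was found in 2 places before Casp1 and 1 before Casp4, and 69.8% of 27025 promoters of the same length held it. GGGANTTCC was found in 2 places before Casp4 and not before Casp1, and 1.40% of the promoters held it. The AATC match of Casp4, read as GATT, overlaps a GGGANTTCC match. The kappaB and GATA motifs were chosen after values and sequences had been seen. A match is a description of letters and not a measured site.

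Casp1, which matures IL-1beta and IL-18 on inflammasomes, was at 78.1 and 77.5 CPM in young KD, 80.0 and 70.0 in young KO, 76.9 and 75.6 in sick KD and 81.5 and 77.5 in old KO. The highest library was 1.16 times the lowest, and the young KO mice spanned nearly the whole range. Its log2 fold change was 0.06 ± 0.11 (SE) in old KO against sick KD (adjusted p = 0.711, edgeR quasi-likelihood test with Benjamini-Hochberg adjustment, as for all adjusted p below). In sick against young KD it was -0.04 ± 0.10 (adjusted p = 0.820).

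Casp4, the sensor of cytosolic lipopolysaccharide, was at 40.9 and 38.4 CPM in sick KD, 28.1 and 27.9 in old KO, 29.9 and 26.3 in young KO and 25.9 and 33.2 in young KD. Both sick KD libraries were above all others. Casp4 was 1.41-fold lower in old KO than in sick KD (log2 fold change -0.50 ± 0.12, adjusted p = 0.0297), the only one of the 7 genes called in that comparison. Against young KD, the sick KD level was higher by 0.42 ± 0.15 on the log2 scale with an adjusted p of 0.0887. Set against its neighbour, Casp4 stood at 53.2 and 50.8 CPM per 100 CPM of Casp1 in sick KD and at 33.1 to 42.8 in the other 6 libraries. The 2 genes are related in sequence, and how reads that fit both were counted is not given in the sources used here. With the trend of each library in GC content and exon length removed, the Casp4 difference in old KO against sick KD was -0.25 and lost its call (adjusted p = 0.118). Without 1 mouse the log2 fold change lay between -0.55 and -0.45, and the call was lost without sick KD 1 (adjusted p = 0.0908), without old KO 1 (0.139) and without old KO 2 (0.130).

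Among the initiators, Casp8 acts downstream of death receptors and restrains necroptosis. Casp8 (ENSMUSG00000026029, chromosome 1, 58795374 to 58847503, plus strand) was at 119 and 122 CPM in young KD, 126 and 115 in young KO, 126 and 121 in sick KD and 126 and 129 in old KO. The groups overlapped except that both old KO mice were above both sick KD mice and both young KD mice, by less than the spread between the young KO mice. Its log2 fold changes lay between -0.01 and 0.08 in the 4 comparisons of 2 groups, and none passed the test. Casp8 showed the smallest spread of the 8 genes.

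Casp2, the initiator that the PIDDosome activates, lies on chromosome 6 (ENSMUSG00000029863, 42264985 to 42282508, plus strand). It was at 114 and 108 CPM in sick KD, 119 and 129 in old KO, 117 and 124 in young KO and 131 and 124 in young KD. Both sick KD libraries were the lowest, but the difference from old KO (log2 fold change 0.16 ± 0.12, adjusted p = 0.357) and from young KD (-0.21 ± 0.10, adjusted p = 0.193) did not pass the test.

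Casp9, the initiator of the mitochondrial pathway, lies on chromosome 4 (ENSMUSG00000028914, 141793612 to 141815976, plus strand). It was at 29.5 and 33.0 CPM in sick KD, 42.8 and 41.0 in old KO, 44.0 and 45.3 in young KO and 44.3 and 42.9 in young KD. The 6 libraries outside sick KD lay within 41.0 to 45.3 CPM, and both sick KD libraries were below them. Casp9 fell in sick KD against young KD, with a level 1.40-fold lower (log2 fold change -0.49 ± 0.12, adjusted p = 0.0322). In old KO against sick KD the log2 fold change was 0.43 ± 0.12 with an adjusted p of 0.0517, and DESeq2 gave an adjusted p of 0.0422. With the trend in GC content and exon length removed, the fall in sick against young KD was -0.24 and no longer called (adjusted p = 0.0679). Without 1 mouse the log2 fold change lay between -0.57 and -0.41, and the call was lost without sick KD 1 (adjusted p = 0.0662), young KD 1 (0.185) or young KD 2 (0.0947). Of its merged exon bases, 94 (1.81%) overlap Cela2a and Ctrc on the other strand, and the strand setting of the counting is not given in the sources used here.

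Apaf1 (ENSMUSG00000019979, chromosome 10, 90989311 to 91082770, minus strand) was the gene of the 8 with the most counts. It was at 267 and 269 CPM in young KD, 259 and 281 in young KO, 271 and 225 in sick KD and 262 and 272 in old KO. Sick KD 2 was the lowest library, while sick KD 1 lay among the others. The log2 fold changes were 0.11 ± 0.14 in old KO against sick KD (adjusted p = 0.615) and -0.12 ± 0.13 in sick against young KD (adjusted p = 0.522). Casp9 stood at 10.9 and 14.7 CPM per 100 CPM of Apaf1 in sick KD and at 15.1 to 17.0 in the other 6 libraries.

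Casp6, an executioner that cuts lamins, lies on chromosome 3 (ENSMUSG00000027997, 129901425 to 129914103, plus strand). It was at 15.8 and 15.7 CPM in sick KD, 12.3 and 12.6 in old KO, 11.9 and 12.1 in young KO and 10.8 and 11.0 in young KD. No 2 groups overlapped, and the order from low to high was young KD, young KO, old KO and sick KD. How many of all genes separate in this way was not counted, so the order is a description only. Both sick KD libraries lay above or below all others in 48.3% of the 15102 genes. Casp6 rose in sick KD against young KD, with a level 1.44-fold higher (log2 fold change 0.52 ± 0.14, adjusted p = 0.0419). The neighbouring steps did not pass the test, with 0.13 ± 0.12 for young KO against young KD, 0.06 ± 0.13 for old against young KO and -0.33 ± 0.16 for old KO against sick KD (adjusted p = 0.181). With the trend in GC content and exon length removed, Casp6 was called in that last comparison (-0.53, adjusted p = 0.0334). With any 1 mouse left out, the log2 fold change in sick against young KD stayed between 0.50 and 0.53, but the adjusted p was over the threshold, at 0.0742 without sick KD 1, 0.0633 without sick KD 2, 0.283 without young KD 1 and 0.189 without young KD 2.

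**Figure D2:**
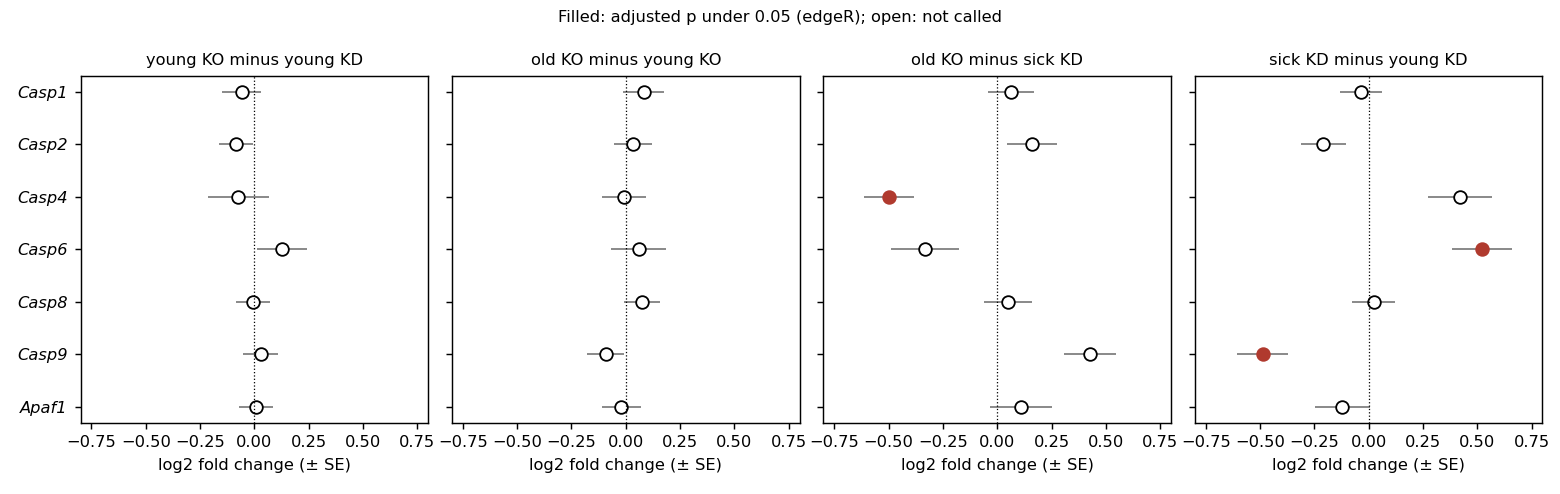
Log2 fold change (points) with its SE (bars) of the 6 caspases and Apaf1 in 4 comparisons, from edgeR, with filled points for an adjusted p under 0.05. Only Casp4 in old KO minus sick KD (-0.50) and Casp6 (0.52) and Casp9 (-0.49) in sick KD minus young KD are filled.

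In young KO against young KD, where 0.0404% of 14839 genes were called, none of the 7 genes was called by edgeR or by DESeq2, and 0 had an unadjusted p under 0.05. Their log2 fold changes lay between -0.09 for Casp2 and 0.13 for Casp6. In old against young KO, where 0.929% of 14847 genes were called, again none was called by edgeR or DESeq2 and 0 had an unadjusted p under 0.05. The log2 fold changes lay between -0.09 for Casp9 and 0.08 for Casp1. At 2 mice per group a small difference was not detectable, and these values do not show that the levels are equal.

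In old KO against sick KD, 1 of the 7 genes was called, and 18.1% of 14470 genes were called in either direction. Casp4 was lower, as were 8.22% of all genes, while 9.93% were higher. DESeq2 called Casp4 and Casp9, as did edgeR without sick KD 2. In sick against young KD, 2 of 7 were called, beside 20.9% of 14656 genes. Casp6 was among the 9.45% of genes that were higher and Casp9 among the 11.4% that were lower. The shares of the 7 genes are near the background in both comparisons. With the trend in GC content and exon length removed, the genes called in old KO against sick KD went from 1437 higher and 1189 lower to 1556 higher and 2325 lower, and those in sick against young KD from 1385 and 1678 to 3043 and 1819. The comparisons share the sick KD mice, so they are not independent of each other. The interaction, which asks whether the KO and KD groups lay as far apart in young mice as in old KO and sick KD mice, was called in 7.43% of 15102 genes and in none of the 7 by edgeR. Of the 7, 3 had an unadjusted p under 0.05: Casp4 (-0.43 on the log2 scale, adjusted p = 0.178), Casp6 (-0.47, 0.111) and Casp9 (0.39, 0.102).

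Dapk2 (ENSMUSG00000032380, chromosome 9, 66158223 to 66272242, plus strand) had few counts, from 49 to 442 per library. It was at 1.98 and 2.35 CPM in sick KD, 10.4 and 7.12 in old KO, 5.50 and 8.65 in young KO and 11.0 and 5.13 in young KD. The highest library was young KD 1 and not an old KO library, and old KO overlapped both young groups. Sick KD was below all 6 others. As a description, Dapk2 was 4.04-fold higher in old KO than in sick KD (log2 2.01 ± 0.28 SE) and 3.74-fold lower in sick KD than in young KD (log2 -1.90 ± 0.39 SE). Old KO stood 0.31 ± 0.30 above young KO on the log2 scale. The test in young KO against young KD, which the choice did not use, gave -0.20 ± 0.39 (adjusted p = 1). That sign turned without young KD 1 (0.46) and without young KO 1 (0.10).

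The 250 bases before the RefSeq start of Dapk2 (GRCm38.p6, chr9:66157976-66158225, plus strand) are shown with the AATC match in capitals. They are given because no other member varied as much between mice, in values that the choice of Dapk2 used.

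Dapk2: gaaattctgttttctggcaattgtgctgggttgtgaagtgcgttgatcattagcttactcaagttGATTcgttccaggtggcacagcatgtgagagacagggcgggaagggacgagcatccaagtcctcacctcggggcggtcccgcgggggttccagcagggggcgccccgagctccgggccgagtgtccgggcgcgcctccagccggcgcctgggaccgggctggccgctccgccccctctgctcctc

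It held 1 AATC match, read as GATT, and no match to AGATAA, a form of the GATA site that 10.2% of promoters held. Its GC content was 65.2%, against a median of 52.0% over all promoters, and it had 20 CpG against a median of 6. The GC content before the other members was 39.6% (Casp8), 41.6% (Casp4), 49.2% (Casp1), 58.4% (Casp6), 60.4% (Casp2), 66.0% (Casp9) and 75.6% (Apaf1).

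The erythroid markers Klf1, Alas2, Epor, Slc4a1 and Ermap moved with Dapk2. Their summed level was 190 and 282 CPM in sick KD, 1534 and 835 in old KO, 531 and 1058 in young KO and 1224 and 564 in young KD. Within each of the 4 groups, the mouse with more Dapk2 was the mouse with the higher sum, and none of the markers was at 0. Dapk2 stood at 10.4 and 8.31 CPM per 1000 CPM of this list in sick KD and at 6.77 to 10.3 in the other 6 libraries, so that sick KD 2 lay inside the range of the others and sick KD 1 just above it. Slc4a1 made up most of this sum, at 1014 of 1534 CPM in old KO 1 and 124 of 190 in sick KD 1. Ratios to the single markers were not taken, so the range of the ratio holds for this sum only. Whether the erythroid share of the marrow bears on Dapk2 was not tested.

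**Figure D3:**
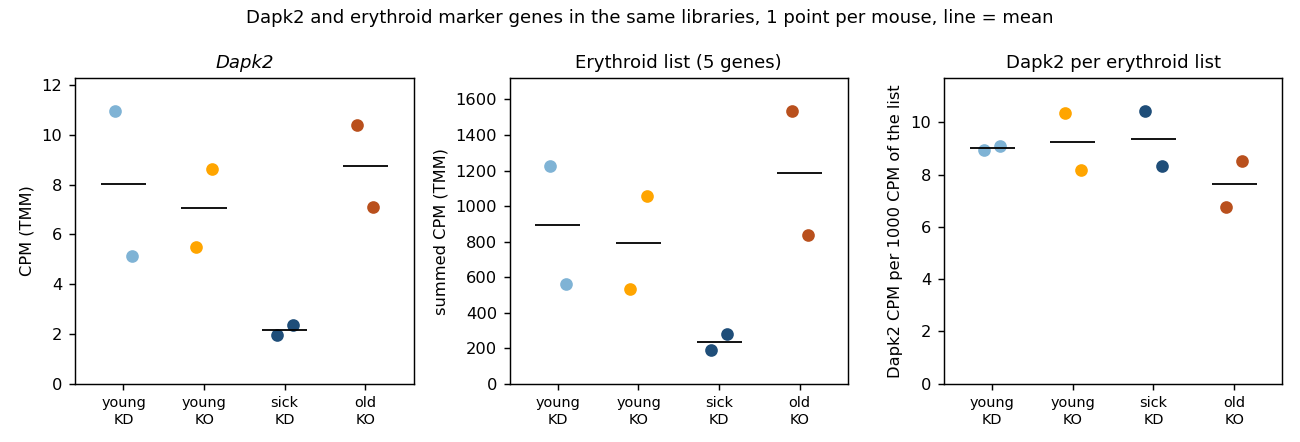
Dapk2 CPM, the summed CPM of 5 erythroid markers and Dapk2 CPM per 1000 CPM of that list, all on linear axes from 0, with 1 point per mouse and a line at the mean of 2 mice. Dapk2 and the list are lowest in both sick KD mice, and the ratio lies between 6.77 and 10.4 in all 8 mice.

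The 3 protein-coding genes closest to Dapk2 over the 8 mice, by the root mean square (RMS) difference of centred log2(CPM + 1) among 12939 genes, were Rhag at 0.113, Hemgn at 0.115 and Tal1 at 0.120. Rhag is part of the Rh complex of the red cell membrane, Hemgn is a nuclear protein of blood progenitors, and Tal1 is a transcription factor of erythroid cells. Rhag was at 11.4 and 12.6 CPM in sick KD, 57.9 and 36.0 in old KO, 25.8 and 45.2 in young KO and 53.5 and 27.5 in young KD. With a pseudocount of 5 in place of 1 the closest gene was Spire1 (0.0468). Casp1, taken by the same measure, was closest to Klhdc2 at 0.0279, Ostf1 at 0.0315 and Fnta at 0.0317, all of them genes that varied little.

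Other genes of the pathways were taken from 7 lists with 62 genes. In young KO against young KD, 0 of 60 tested genes were called by edgeR and by DESeq2, with 2 at an unadjusted p under 0.05. In old against young KO edgeR called 0 of 60, with 2 at an unadjusted p under 0.05, and DESeq2 called 1. In old KO against sick KD 3 of 59 were higher and 5 lower by edgeR, and in sick against young KD 4 of 59 were higher and 5 lower, which are shares below the background given above. DESeq2 called 13 and 15 of the 59, beside 3059 of 14470 and 3385 of 14656 genes in all, which are shares slightly above its own background. The median log2 fold change over the 59 genes was -0.04 in old KO against sick KD and 0.05 in sick against young KD, beside medians of -0.0050 and 0.01 over all genes tested. Of the caspases in these lists, Casp12 was at 1.78 to 3.62 CPM and was not called by edgeR in any comparison. Casp14 had 0 counts in every library, which at 3 counts allows up to 0.121 CPM in the shallowest one.

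Among 10 caspase substrates, 2 were higher and 1 lower in old KO against sick KD, and 0 were higher and 2 lower in sick against young KD, beside 18.1% and 20.9% of all genes called in either direction. The nuclear lamin Lmna, which Casp6 cuts, was at 18.3 and 16.4 CPM in sick KD, 49.0 and 33.2 in old KO, 33.3 and 29.7 in young KO and 39.5 and 29.2 in young KD. It was 2.37-fold higher in old KO than in sick KD (adjusted p = 0.0106) and 1.99-fold lower in sick than in young KD (adjusted p = 0.0152). Parp1, a DNA repair enzyme, was also lowest in sick KD, at 165 and 187 CPM against 288 to 320 in the other 6 libraries. Gsdme, a gasdermin that caspases cut, was 1.70-fold lower in old KO than in sick KD (adjusted p = 0.0433), a call lost with the GC and length trend removed and in 3 of 4 fits that left out 1 mouse.

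Of the 15 inflammasome genes, 13 were tested in these comparisons. In old KO against sick KD 1 was higher and 2 lower, and in sick against young KD 2 were higher and 2 lower, beside the same 18.1% and 20.9% of all genes. These shares are above the background but rest on 3 and 4 genes. Pycard, the adaptor that joins sensors to Casp1, was at 193 and 200 CPM in sick KD, 119 and 136 in old KO, 142 and 133 in young KO and 122 and 129 in young KD. It was 1.54-fold lower in old KO than in sick KD (adjusted p = 0.0207) and 1.56-fold higher in sick than in young KD (adjusted p = 0.0125). Gbp2, an interferon-induced GTPase that acts upstream of Casp4 on bacteria, moved opposite to Casp4, at 21.8 and 28.1 CPM in sick KD and 45.9 to 67.0 in the other libraries. The sensor Nlrp3 rose in sick against young KD (log2 fold change 0.41 ± 0.11, adjusted p = 0.0415), but young KO 2 was as high as sick KD 1, at 57.3 and 57.2 CPM. Nlrp1b was called lower in old KO than in sick KD (-0.75 ± 0.20, adjusted p = 0.0451), although its highest library was young KD 2 at 49.1 CPM. Il1a was called lower in sick than in young KD (-1.54 ± 0.42, adjusted p = 0.0457) on only 11 and 12 counts in sick KD, and DESeq2 did not call it.

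In the death receptor list of 15 genes 1 was lower in old KO against sick KD, and 1 was higher and 1 lower in sick against young KD, below the 18.1% and 20.9% of all genes. Tnf, the ligand of the TNF receptors, was at 23.4 and 26.5 CPM in sick KD and 5.53 to 8.34 in the other 6 libraries. It was 3.54-fold lower in old KO than in sick KD (adjusted p = 0.00496) and 3.66-fold higher in sick than in young KD (adjusted p = 0.00546). Cflar, the inactive homolog that restrains Casp8, was at 113 and 102 CPM in sick KD and 138 to 148 in the others, and fell in sick against young KD (-0.46 ± 0.11, adjusted p = 0.0308).

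In the list of 14 apoptosome genes and inhibitors, 1 was lower in old KO than in sick KD (Naip5, -0.56 ± 0.13, adjusted p = 0.0311) and 1 higher in sick than in young KD (Naip6, 0.84 ± 0.15, adjusted p = 0.0157). Both code for sensors of the NLRC4 inflammasome and belong to a family of near-identical copies, as does Nlrp1b, so that the split of reads between copies is uncertain. Neither Cycs nor Xiap passed the test in any comparison. None of the 2 PIDDosome genes and of the 4 genes related to DAP kinases was called by edgeR, where 1 and 1 had an unadjusted p under 0.05 in old KO against sick KD and 1 and 0 in sick against young KD.

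A fit without 1 mouse compares 2 mice with 1, whose spread is taken from the other group, so a call can be lost with little change in the difference. The calls of Tnf, Lmna and Gbp2 held in all 4 fits that left out 1 mouse, in both comparisons, as did that of Parp1 in old KO against sick KD. In that comparison Pycard lost its call without old KO 1 (adjusted p = 0.163), Naip5 without sick KD 1 (0.0847) or old KO 1 (0.196), Nlrp1b without sick KD 1 (0.167) or old KO 2 (0.142), and Gsdme without sick KD 1 (0.152), old KO 1 (0.0933) or old KO 2 (0.121). In sick against young KD, leaving out young KD 1 ended the calls of Pycard (adjusted p = 0.118), Cflar (0.183), Nlrp3 (0.294), Parp1 (0.0531) and Naip6 (0.0516). Leaving out young KD 2 ended those of Pycard (0.0535), Cflar (0.133), Nlrp3 (0.190) and Il1a (0.215). Il1a also lost its call without sick KD 1 (0.116) or sick KD 2 (0.115), and Nlrp3 without sick KD 1 (0.0779).

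**Figure D4:**
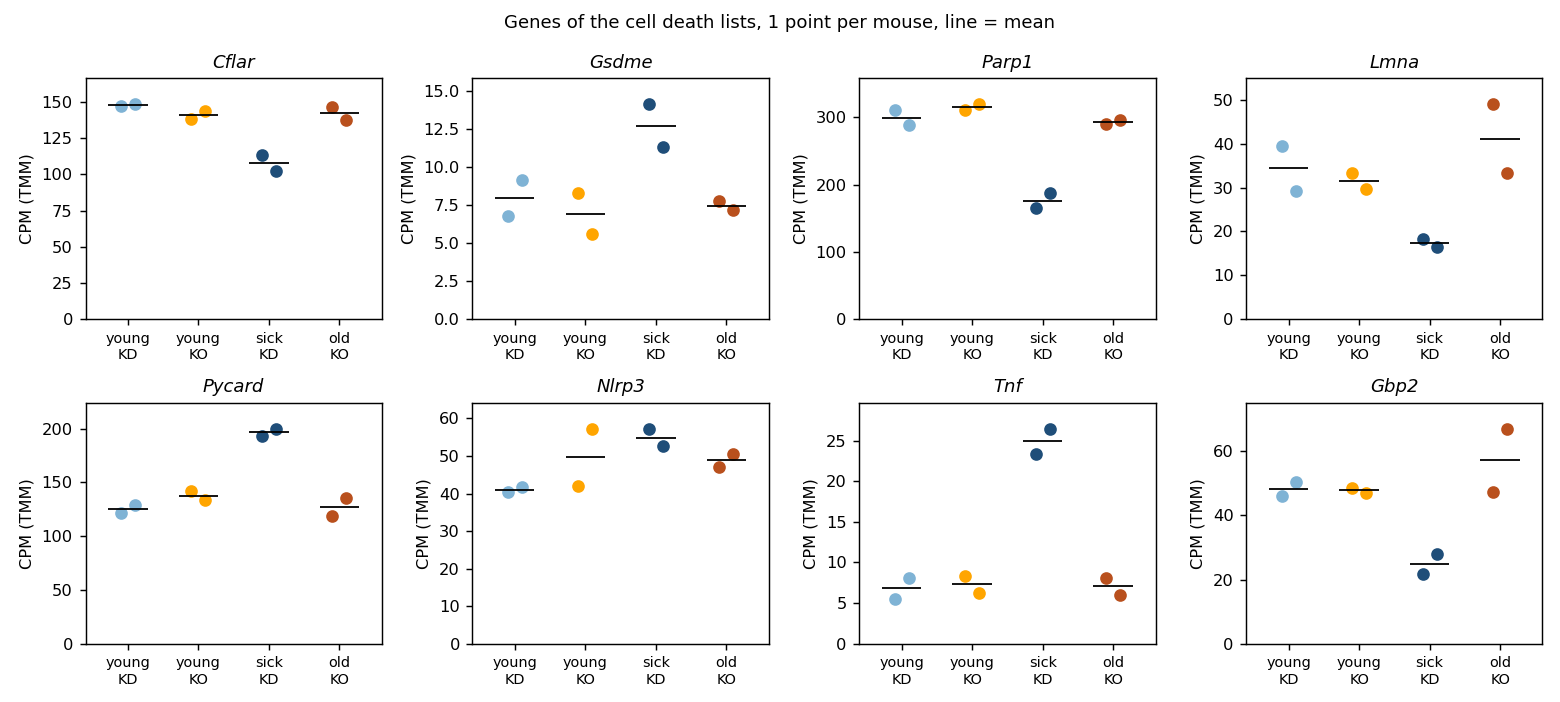
CPM (TMM-normalized, linear axis from 0) of Cflar, Gsdme, Parp1, Lmna, Pycard, Nlrp3, Tnf and Gbp2 in each mouse, by group, with a line at the mean of 2 mice. Cflar, Parp1, Lmna and Gbp2 are lowest and Gsdme, Pycard and Tnf highest in both sick KD mice, while Nlrp3 in young KO 2 is as high as in sick KD 1.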

How the data were processed

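Whole BM of 8 mice was sequenced, with 2 mice in each of 4 groups taken from the labels. Where nothing says how the replicate mice were related, p-values measure only the spread between these mice. The authors prepared TruSeq Stranded mRNA libraries, aligned the reads to mm10 with TopHat2 2.0.10, processed them with SAMtools and deposited raw read counts per Ensembl gene from HTSeq, with no normalization. The Ensembl release and strand setting are not given in the sources used here. The authors tested expression with DESeq. Each deposited file holds 41214 genes and 5 tallies of unassigned reads, which stayed out of library sizes and tests. The share of reads assigned to no feature was 26.9% to 42.0%, out of reads on genes, ambiguous reads and reads with no feature. Depth was 26642067 to 42679114 counts on genes. At this depth most genes are limited by how far the 2 mice of a group differ rather than by counting. Replicates were not copies, since a chi-square test of their counts gave 23.5 to 38.8 times its degrees of freedom.

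Symbols and positions came from GENCODE M21 (GRCm38), where 40340 identifiers had a symbol, and promoters of all 8 genes from RefSeq (GRCm38.p6). The main test was that of edgeR 4.0.16 (R 4.3.3, TMM, filterByExpr by group, quasi-likelihood test, Benjamini-Hochberg adjustment over all tested genes, threshold 0.05), on the 4 mice of each comparison, and on 8 mice for the interaction. The SE is the absolute log2 fold change over the square root of F. A value of 0 counts allows up to 3 counts, and this covers counting error only. Scripts were tested on data drawn from the real means with 200 genes changed 4-fold. The alternatives were DESeq2 1.42.0, its size factors in edgeR, library sizes without the 50 most counted genes, every gene with a count, at least 10 counts in every mouse, all 8 mice fitted together, removal of a spline trend in GC content and exon length per library, leaving out each mouse (the lone mouse left in a group is assumed to vary like the others), and a pseudocount of 5 in place of 1 for the closest patterns.

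The members, lists and tests were chosen with earlier results of these data known. Named were all members and, per comparison, up to 10 list genes per direction with the largest change among those called whose groups did not overlap. Casp12, Casp14, Cycs and Xiap were named outside this rule after their values were seen. Gbp5 was not analysed here, and some genes that the rule names, or that were in a list of markers, are not reported here.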

Additional observations from a re-analysis of the deposited data

Results flagged for a closer look

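For 5 of 60 tested genes of the cell death lists, a share near the 7.43% of all 15102 genes called in that test, the KO-to-KD difference was not the same in old or sick mice as in young mice, by the interaction test of edgeR with Benjamini-Hochberg adjustment in 8 mice. It was lower for Tnf by 1.94 on the log2 scale (interaction -1.94 ± 0.34 SE, adjusted p = 0.0218) and for Pycard (-0.76 ± 0.14, adjusted p = 0.0223). It was higher for Lmna (1.37 ± 0.29, adjusted p = 0.0338), Gbp2 (1.20 ± 0.25, adjusted p = 0.0331) and Parp1 (0.66 ± 0.14, adjusted p = 0.0326). In the young comparison alone none of the 5 was called. When 1 of the 8 mice was left out, the interaction stayed called in 4 of 8 fits for Tnf and Pycard, 2 for Gbp2 and Lmna and 1 for Parp1, which also lost it with the trend in GC content and exon length removed. The sick KD mice are part of each of these differences.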

How the results depend on the processing

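With 2 mice per group, calls near the threshold depended on the processing, and the cause was not tested. A fit without 1 mouse has fewer samples, and its lost calls may come with a difference that hardly moved. Each mouse has its own number in the labels, and no paired analysis was made. These numbers do not tell whether mice of different groups shared a litter or batch. Of the 7 genes other than Dapk2, 1 was called in old KO against sick KD. DESeq2, its size factors in edgeR, every gene with a count, at least 10 counts in every mouse and all 8 mice together each gave 2, and leaving out 1 mouse gave 0 to 2. The count stayed at 1 with the trend in GC content and exon length removed, but the gene was Casp6 and not Casp4. In sick against young KD, 2 were called, 1 with that trend removed and 0 to 1 with 1 mouse left out (0 without sick KD 1, young KD 1 or young KD 2). For the interaction, 0 were called and 1, Casp6, with the trend removed (-0.70, adjusted p = 0.0265).

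Of the list genes, 8 were called in old KO against sick KD, 13 by DESeq2, 18 with every gene, 16 with all 8 mice together, 20 with the trend removed (beside 3881 of 14470 genes) and 5 to 11 with 1 mouse left out (5 without sick KD 1). In sick against young KD 9 were called, 15 by DESeq2, 24 with the trend removed (beside 4862 of 14656 genes) and 6 to 12 with 1 mouse left out. In the young comparison 0 were called, 1 with every gene and 0 to 1 with 1 mouse left out. In old against young KO 0 were called, 1 by DESeq2, 2 with every gene and 0 to 1 with 1 mouse left out. For the interaction 5 were called, 8 by DESeq2, 10 with every gene, 8 with the trend removed and 0 to 5 with 1 mouse left out (0 without young KO 1, young KO 2 or young KD 1, 1 without sick KD 1, 2 without old KO 1 and 3 without young KD 2).

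The sign turned only in differences that were not called. With 1 mouse left out, the log2 fold change in the young comparison ran from -0.15 to 0.033 for Casp1, -0.24 to 0.12 for Casp4, -0.069 to 0.055 for Casp8, -0.057 to 0.069 for Apaf1 and -0.64 to 0.46 for Dapk2. In old KO against sick KD Apaf1 ran from -0.019 to 0.25. In sick against young KD Casp8 ran from -0.0044 to 0.054 and Apaf1 from -0.26 to 0.0074. In old against young KO the ranges were -0.0065 to 0.17 for Casp1, -0.024 to 0.090 for Casp2, -0.092 to 0.083 for Casp4 and -0.087 to 0.046 for Apaf1. For the interaction they were -0.014 to 0.12 for Casp8 and -0.044 to 0.24 for Apaf1. With the trend removed the sign turned for Casp8 in the young comparison (0.0065), in old KO against sick KD (-0.0095) and for the interaction (-0.034), and for Casp4 in old against young KO (0.14). That removal moved the median of all genes to -0.11 for the interaction, and by less than 0.1 elsewhere. Casp4 in sick against young KD passed with every gene (adjusted p = 0.0413) and with all 8 mice together (0.0451).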
